A study of Mus musculus with 6 samples.

Results

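Orphan receptors and the regulators of heterotrimeric G-protein signalling were measured in fully grown mouse oocytes. The genes were taken by their symbols: numbered Gpr receptor genes, numbered Rgs genes, and the Gna, Gnb and Gng genes of the G alpha, G beta and G gamma subunits, leaving out Gpr3, Gpr12 and Gnas. This gave 148 of the 23284 gene symbols in the files. RNA was sequenced from oocytes deleted for Lsd1 (Lsd1 KO, 3 samples) and from oocytes of the control genotype (Control, 3 samples), all from mice of mixed C57BL/6-129 background. Lsd1 is the older name of Kdm1a, a histone lysine demethylase of the CoREST corepressor complex. Each sample pooled 100 oocytes at the germinal vesicle stage, which is the prophase arrest that precedes meiotic resumption. The females were 4 to 6 weeks old and had received 5 IU of gonadotrophin to stimulate follicle growth 48 hours earlier. The promoter that drives the deletion, the deleted exons and the alleles that the Control mice carry were not stated in the sources used here. The series calls the 3 samples of a genotype biological replicates, but whether each pool came from other females is not stated, so p-values measure the spread between these samples.

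G-protein-coupled receptors cross the membrane in a bundle of helices and, once bound by a ligand, make a G alpha subunit exchange GDP for GTP. The G alpha subunit then parts from its G beta-gamma dimer, and both act on effectors: Gs raises and Gi lowers cyclic AMP, Gq activates phospholipase C beta, and the Gna12 and Gna13 subunits activate guanine nucleotide exchange factors. Regulators of G-protein signalling (RGS proteins) end the signal by speeding up GTP hydrolysis on G alpha, mainly of the Gi and Gq classes. In mouse oocytes, high cyclic AMP kept up by a constitutively active receptor and Gs holds the prophase arrest, and Rgs2 is known to restrain calcium release in the egg before fertilization.

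Library totals ran from 10735422 to 13035045 counts, and levels are given in CPM, the counts divided by library totals scaled by TMM. Fold changes are log2 of Lsd1 KO over Control with their standard error (SE), and each adjusted p comes from the quasi-likelihood test of edgeR over all genes tested. The deleted gene Kdm1a measured 3.77, 2.80 and 3.23 CPM in Lsd1 KO against 73.9, 72.5 and 44.4 CPM in Control. All 12 oocyte markers had counts, and their summed level was 29890 to 34020 CPM in Lsd1 KO and 19660 to 23510 CPM in Control. Gdf9, an oocyte growth factor, led that difference: the other 11 summed to 15410, 17070 and 17350 CPM in Lsd1 KO and 17940, 17380 and 12650 CPM in Control, which overlap. Of the 12, Gdf9 and Oosp1 were called higher (log2 1.36 and 0.82, adjusted p = 5.01e-04 and 0.0084). Dazl was called lower (log2 -1.31, adjusted p = 6.81e-04), and the other oocyte markers did not pass. Markers of other ovarian cells were far lower but differed between libraries. The 12 granulosa and cumulus markers summed to 414 to 476 CPM in Lsd1 KO and 133 to 161 CPM in Control, of which Cyp19a1, the aromatase, made up 239 to 405 CPM and 28.6 to 49.2 CPM. The other 11 summed to 97.7, 71.3 and 175 CPM in Lsd1 KO and 104, 101 and 112 CPM in Control, which overlap. Among them Inha and Gja1 were called higher (log2 1.36 and 1.90, adjusted p = 0.043 and 0.0221), though the libraries of both overlapped. Nr5a2 was called lower (log2 -1.28, adjusted p = 7.86e-04). It made up 25.7, 27.1 and 33.2 CPM of these sums in Lsd1 KO and 67.5, 73.0 and 67.7 CPM in Control. The 9 immune markers summed to 134, 9.83 and 94.4 CPM in Lsd1 KO replicates 1 to 3 and to 32.0, 5.80 and 38.4 CPM in Control replicates 1 to 3. The 6 stroma markers summed to 8.66 to 11.2 CPM in Lsd1 KO and 1.39 to 2.26 CPM in Control, mostly through Dcn. The 5 stroma markers without Dcn summed to 1.53 to 3.41 CPM in Lsd1 KO and 0.829 to 1.90 CPM in Control. The 6 theca and luteal markers summed to 11.2 to 42.7 CPM in Lsd1 KO and 8.85 to 14.4 CPM in Control, with Insl3 at 0. The 5 endothelial markers summed to 103 to 122 CPM in Lsd1 KO and 69.2 to 86.2 CPM in Control, with Cdh5 and Emcn almost absent. Of these, Tek was called higher (log2 0.73, adjusted p = 0.0306). The 5 red cell markers summed to 0.180 to 0.722 CPM in Lsd1 KO and 0.678 to 2.08 CPM in Control, with 4 globin genes at 0. In pooled samples of this kind, a change in the number of cells of a type and a change in RNA per cell cannot be told apart.

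Of the 148 members, 72 had enough counts to be tested, 62 had counts but fell below the filter, and 14 were listed at 0 in all 6 libraries. A count of 0 allows a level of up to 0.226 to 0.277 CPM per library, for counting error only. Of the 68 receptors outside the adhesion family, 18 were tested, 38 had counts below the filter and 12 were listed at 0, whereas all 10 atypical multi-pass proteins and 14 of 15 G alpha genes were tested. The members listed at 0 included Gpr6, Gpr17, Gpr26, Gpr37, Gpr61, Gpr81, Gpr85, Gpr119, Gpr139, Gpr161 and Gpr182 among the receptors, and Rgs5 and Rgs14 among the RGS genes. Whether the annotation used for counting covered these genes was not stated. Untested members reached at most 3.85 CPM in any library.

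Among the 72 tested members, 10 were higher in Lsd1 KO (13.9%, beside 11.0% of all 12935 genes tested), 13 were lower (18.1%, beside 10.3%) and 49 did not pass. Together 31.9% of the tested members were called, beside 21.3% of all genes tested. By class, the share of tested members called ran from 0 of 2 (RGS R4) to 3 of 6 (G beta and relatives), with 2 to 18 genes tested a class. Gng8, Gpr64 and Gpr133 passed the filter on low counts through Lsd1 KO alone, with 0 Control libraries at its level. These 3 could hardly have been tested without a difference. Gpr84 and Gpr126 had 1 Control library at that level, and Gpr50 and Gpr146 had 1 and 2 Lsd1 KO libraries. In all, 15 tested members had fewer than 3 libraries of a genotype at that level, and 7 of these were called. The other 57 had all 6 libraries at that level, and 16 of them were called. The share called is therefore not read as a result about the members. The groups did not overlap for any of the 23, beside 97.4% of all called genes and 38.7% of all genes tested. The median log2 fold change was 0.07 over the 72 members and -0.01 over all genes tested, and 37 of the members had a positive and 35 a negative value. Leaving out Lsd1 KO replicate 3, Control replicate 1 or Control replicate 2 gave 5, 6 and 4 members higher. Leaving out Lsd1 KO replicate 1 or 3 or Control replicate 1 or 2 gave 7, 6, 7 and 7 members lower. Over the 6 such fits, 6.93% to 10.8% of all genes were called higher and 4.82% to 9.96% lower. Gpr75, Gpr158, Gpr155, Gnai1, Gnaz and Gpr19 kept the call in all 6 fits. Gpr64, Gng8 and Gpr133 did too, but they had entered the test through Lsd1 KO alone.

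**Figure D1:**
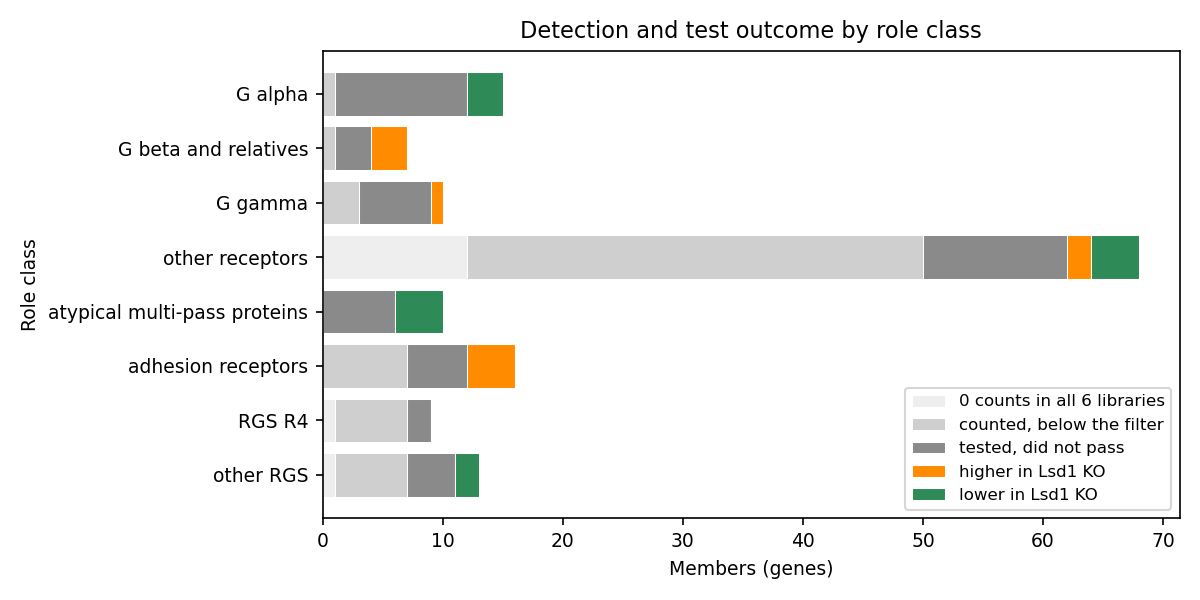
Number of members (horizontal axis, genes) in each role class (vertical axis), divided by detection and by the outcome of the edgeR test at an adjusted p under 0.05. The 4 calls among adhesion receptors are all higher in Lsd1 KO, and only Gpr124 of these had all Control libraries at the level of the filter. The 3 calls among G alpha genes and the 4 among atypical multi-pass proteins are all lower. Of all 12935 genes tested, 11.0% were called higher and 10.3% lower. Of the 68 other receptors, 12 have 0 counts in all 6 libraries.

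**Figure D2:**
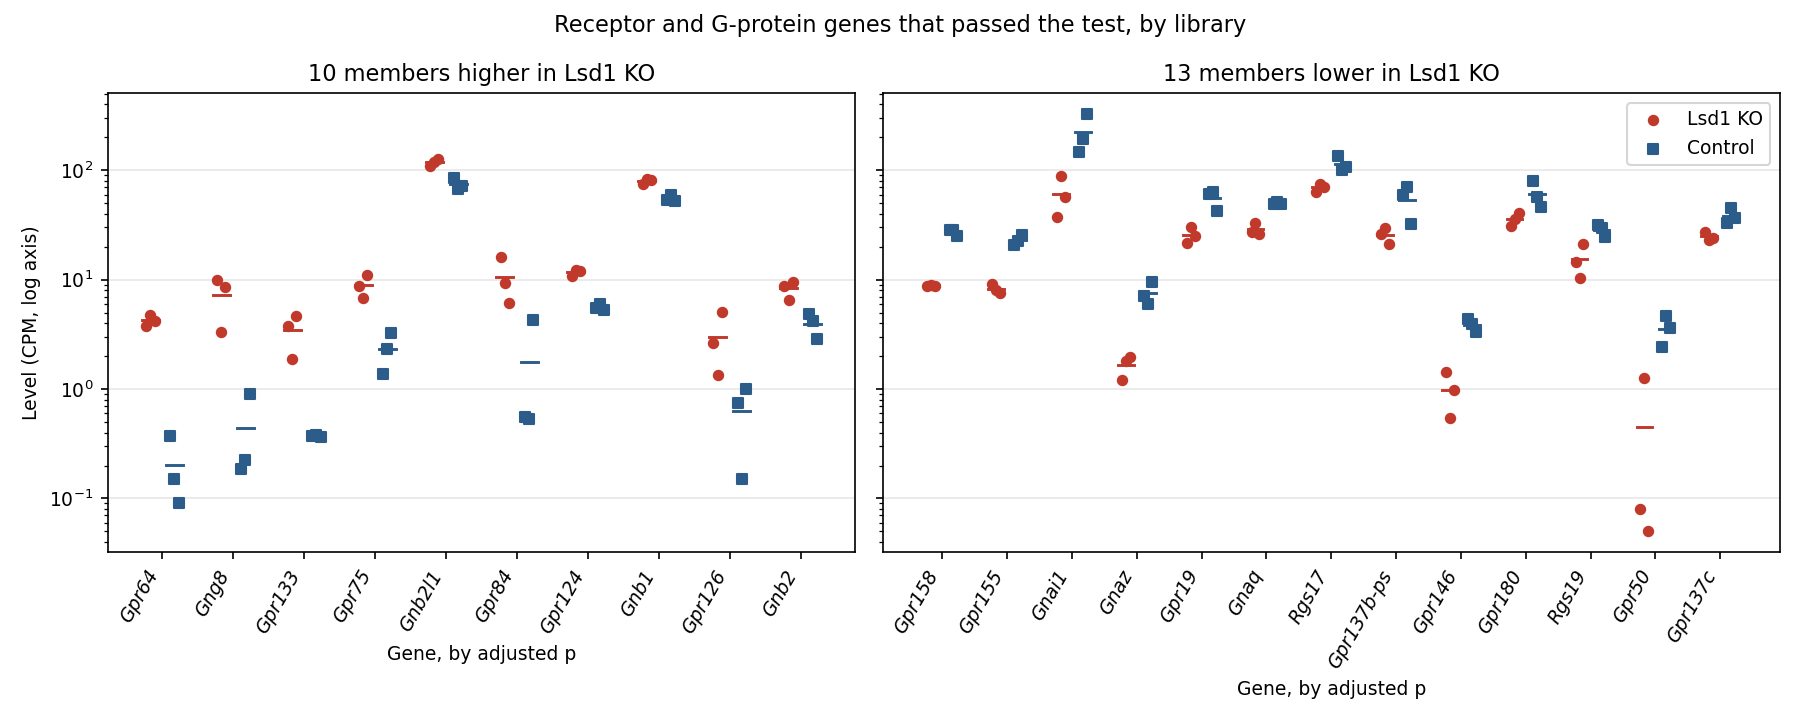
Level in each library (CPM, log axis) of the 10 members higher and the 13 members lower in Lsd1 KO, ordered by adjusted p, with Lsd1 KO libraries as circles left of Control libraries as squares and bars at the group means of 3 libraries. A level of 0 is drawn at 0.05 CPM. The groups overlap for none of the 23 genes, beside 97.4% of all called genes without overlap, and Gpr64, Gpr133 and Gpr50 lie at or below 4.78 CPM in every library.

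The start-site regions of the pair of higher and the pair of lower members with the smallest adjusted p that RefSeq's table holds are shown, so that a few called genes can be read with their sequence; Gpr64 and Gng8 had entered the test through Lsd1 KO alone. Each run is the gene's own strand, 5′ to 3′, from 250 bases before to 50 after the RefSeq start in GRCm38.p6. Motifs were searched on both strands, counting overlapping matches, and capitals mark a GC box (GGGCGG or its reverse complement), the binding sequence of Sp1-type factors. A GC box was in 35.9% of the first-listed promoters of all 27025 genes in the table, a CCAAT box (CCAAT) in 37.9%, a TATA box (TATAAA) in 14.2% and an E box (CACGTG) in 7.24%. These 4 regions had 3, 1, 2 and 7 GC boxes in the order shown and no match to the other 3 motifs, and their GC content was 74.0%, 58.0%, 58.3% and 70.3%, beside a median of 52.7% over the table. Among the 57 tested members with an entry, 57.9% had a GC box and the median GC content was 62.0%.
Gpr64 (Adgrg2 in RefSeq; chrX:160390440-160390739, plus strand): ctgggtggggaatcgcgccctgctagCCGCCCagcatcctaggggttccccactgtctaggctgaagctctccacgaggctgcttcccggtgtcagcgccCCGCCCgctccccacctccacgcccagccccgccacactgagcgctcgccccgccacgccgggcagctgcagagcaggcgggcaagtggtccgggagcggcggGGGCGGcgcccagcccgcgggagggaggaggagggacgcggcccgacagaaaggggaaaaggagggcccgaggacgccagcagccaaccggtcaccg
Gng8 (chr7:16891536-16891835, plus strand): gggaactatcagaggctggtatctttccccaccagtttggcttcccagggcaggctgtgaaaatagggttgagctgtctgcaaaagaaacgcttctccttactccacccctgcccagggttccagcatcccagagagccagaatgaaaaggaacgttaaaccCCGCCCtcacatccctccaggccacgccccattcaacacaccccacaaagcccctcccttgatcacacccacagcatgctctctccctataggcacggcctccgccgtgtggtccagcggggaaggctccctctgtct
Gpr158 (chr2:21367317-21367616, plus strand): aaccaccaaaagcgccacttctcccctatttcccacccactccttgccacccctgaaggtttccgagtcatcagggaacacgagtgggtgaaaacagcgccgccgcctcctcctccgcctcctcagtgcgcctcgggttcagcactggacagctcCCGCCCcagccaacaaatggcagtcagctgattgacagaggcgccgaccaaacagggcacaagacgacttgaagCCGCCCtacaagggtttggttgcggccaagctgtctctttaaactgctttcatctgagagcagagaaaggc
Gpr155 (chr2:73386431-73386730, minus strand): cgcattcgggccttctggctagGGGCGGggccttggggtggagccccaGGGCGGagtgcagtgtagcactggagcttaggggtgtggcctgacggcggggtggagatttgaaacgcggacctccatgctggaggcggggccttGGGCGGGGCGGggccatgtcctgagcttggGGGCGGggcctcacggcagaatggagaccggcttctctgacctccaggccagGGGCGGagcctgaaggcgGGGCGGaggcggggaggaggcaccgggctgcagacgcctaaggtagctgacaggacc

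A match is a description of the letters, not of a factor's binding. A comparison of promoter composition between higher members, lower members and those that did not pass is void, because 106 of the 148 members, fewer than 80%, matched an entry of the table by symbol or unique synonym.

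Adhesion receptors, which carry a long extracellular part that is cut next to the membrane and that binds matrix or neighbouring cells, were higher where they were called. Of 16 members, 9 were tested, 4 were higher, 0 were lower and 5 did not pass. Thus 44.4% of those tested were called, beside 21.3% of all genes tested. Of the 4 called, only Gpr124 had all Control libraries at the level of the filter. Gpr64 (Adgrg2), known for its role in fluid resorption in the male efferent ducts, was at 3.77, 4.78 and 4.22 CPM in Lsd1 KO and at 0.370, 0.151 and 0.0903 CPM in Control. The groups lay far apart, with 47 to 53 counts per Lsd1 KO library and 1 to 4 per Control library. Its log2 fold change was 4.33 ± 0.65 (SE, adjusted p = 0.00100), or 4.98 without Control replicate 1, and it lies on mm9 chromosome X from 156828622 to 156936002. Gpr133 (Adgrd1) was at 3.77, 1.89 and 4.67 CPM in Lsd1 KO and at 0.370, 0.377 and 0.361 CPM in Control, and rose by log2 3.18 ± 0.62 (adjusted p = 0.00412). Every Control library held 4 or 5 of its counts, so its fold rests on few reads. Gpr124 (Adgra2), a co-receptor for Wnt signals in brain vessels, was more abundant, at 10.7, 12.3 and 11.9 CPM in Lsd1 KO and 5.55, 6.03 and 5.33 CPM in Control. The libraries of each genotype were close to each other, and the change was log2 1.05 ± 0.29 (adjusted p = 0.0215). The call was nevertheless lost without Lsd1 KO replicate 2 or 3 or Control replicate 1 or 2 (adjusted p = 0.0575, 0.0577, 0.0673 and 0.0505). Gpr126 (Adgrg6), needed for myelination by Schwann cells, was at 2.65, 1.35 and 5.03 CPM in Lsd1 KO and 0.740, 0.151 and 0.993 CPM in Control (log2 2.27 ± 0.74, adjusted p = 0.0452). Its highest Control library was near its lowest Lsd1 KO library, and it did not pass with limma-voom (adjusted p = 0.0613) or without Lsd1 KO replicate 1 or 3 or Control replicate 1 or 2 (0.0920, 0.199, 0.112 and 0.141).

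The most abundant adhesion receptors did not pass the test. Gpr56 (Adgrg1), a receptor for collagen III, was at 85.9, 101 and 80.9 CPM in Lsd1 KO and 68.9, 104 and 99.7 CPM in Control, a log2 difference of -0.03 ± 0.20. Gpr125 (Adgra3) was at 66.6 ± 11.1 CPM in Lsd1 KO against 84.3 ± 7.91 CPM in Control (SD, n = 3 each; log2 -0.34 ± 0.19). The summed level of the 16 adhesion receptors was 48.2 ± 4.24 CPM per kb of exon in Lsd1 KO and 48.9 ± 7.34 CPM per kb in Control. Gpr116 and Gpr98 were tested and did not pass (log2 1.60 and 0.45). Of the 11 granulosa markers tested, Cyp19a1, Inha and Gja1 were called higher in Lsd1 KO, Nr5a2 was called lower and the others did not pass. The stroma marker Dcn, the only 1 of its list tested, was called higher. Of the 3 endothelial markers tested, Tek was called higher (log2 0.73, adjusted p = 0.0306) and the others did not pass. The part of granulosa, stroma and endothelial cells in the rises of the adhesion receptors was not tested.

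Among the other receptors, 2 were higher, 4 were lower and 12 did not pass of 18 tested, so 33.3% were called, beside 21.3% of all genes tested. Gpr158 had the smallest adjusted p of any member. It is a class C receptor, described as a metabotropic glycine receptor in brain, that binds the Rgs7 and Gnb5 complex. The level of Gpr158 was 8.82, 9.02 and 8.71 CPM in Lsd1 KO and 28.4, 28.4 and 25.1 CPM in Control. Replicates hardly differed, and the fall was log2 -1.62 ± 0.22 (adjusted p = 6.17e-04). Gpr158 lies on mm9 chromosome 2 from 21289169 to 21752174. Its partners did not pass: Rgs7 was at 3.82 ± 0.651 CPM in Lsd1 KO against 4.73 ± 3.47 CPM in Control, and Gnb5 at 13.0 ± 3.35 and 11.6 ± 2.75 CPM (SD, n = 3 each). Gpr19, an orphan class A receptor, was at 21.8, 30.4 and 24.9 CPM in Lsd1 KO and 61.1, 63.5 and 42.6 CPM in Control. Its fall was log2 -1.12 ± 0.22 (adjusted p = 0.00400), and all 3 Lsd1 KO libraries were below the lowest Control library. Gpr50, an X-linked relative of the melatonin receptors that binds no melatonin, had 1, 14 and 0 counts in Lsd1 KO and 26, 62 and 40 counts in Control. That is 0.448 ± 0.707 CPM in Lsd1 KO against 3.56 ± 1.13 CPM in Control (log2 -2.99 ± 0.93, adjusted p = 0.0379), with the spread inside Lsd1 KO carried by replicate 2. The size of the fall was unstable: it was log2 -6.11 without Lsd1 KO replicate 2, -2.38 without Lsd1 KO replicate 3 and -4.21 with limma-voom. The call held in 1 of 6 fits with a library left out, the one without Lsd1 KO replicate 2, and was lost without Lsd1 KO replicate 1 or 3 or Control replicate 1, 2 or 3 (adjusted p = 0.125, 0.0878, 0.0721, 0.126 and 0.0710).

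Gpr146, an orphan receptor linked to plasma cholesterol through the liver, was at 1.44, 0.541 and 0.988 CPM in Lsd1 KO and 4.35, 3.92 and 3.34 CPM in Control (log2 -1.95 ± 0.53, adjusted p = 0.0210). The groups were apart, but 3110082I17Rik overlaps it on the opposite strand at 48.9 CPM in Lsd1 KO against 37.9 CPM in Control, and without a stated strand setting their reads cannot be told apart. The call was lost without Lsd1 KO replicate 3 or Control replicate 1 or 2 (adjusted p = 0.0612, 0.0754 and 0.0725). Gpr75, a receptor reported to bind a chemokine and an arachidonic acid metabolite, was at 8.82, 6.85 and 10.9 CPM in Lsd1 KO and 1.39, 2.34 and 3.25 CPM in Control. It rose by log2 1.93 ± 0.41 (adjusted p = 0.00628), and every Lsd1 KO library had over 2 times the highest Control level. Gpr75 lies on mm9 chromosome 11 from 30785358 to 30793729. Gpr84, a receptor for medium-chain fatty acids on macrophages and neutrophils, was at 16.0, 9.29 and 6.10 CPM in Lsd1 KO and 0.555, 0.527 and 4.25 CPM in Control (log2 2.57 ± 0.69, adjusted p = 0.0194). Control replicate 3 set the Control mean, and without it the value was log2 4.24; with limma-voom it was 3.16. The 9 immune markers summed to 134, 9.83 and 94.4 CPM in Lsd1 KO replicates 1 to 3 and to 32.0, 5.80 and 38.4 CPM in Control replicates 1 to 3. Gpr84 was highest in Lsd1 KO replicate 1 and Control replicate 3, which had the highest immune sum of their genotype. Lsd1 KO replicate 2, which had the lowest immune sum of its genotype, had 103 counts of Gpr84. The part of immune cells in Gpr84 was not tested. The call was lost without Lsd1 KO replicate 1 or Control replicate 1 or 2 (adjusted p = 0.0801, 0.0762 and 0.0590).

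The 3 receptors of this class with the highest mean over the 6 libraries did not pass the test, although Gpr19, described above, was above Gpr149 in Control. Gpr1, a receptor for the adipokine chemerin, was at 126, 166 and 119 CPM in Lsd1 KO and 114, 113 and 110 CPM in Control (log2 0.29 ± 0.18, adjusted p = 0.271). Gpr35, which responds to kynurenic acid, was at 85.5 ± 19.0 CPM in Lsd1 KO against 103 ± 12.6 CPM in Control (log2 -0.27 ± 0.20). Gpr149, an oocyte-enriched orphan receptor whose loss raises fertility in mice, was at 36.3, 47.5 and 40.3 CPM in Lsd1 KO and 44.5, 40.0 and 42.8 CPM in Control (log2 -0.04 ± 0.18, adjusted p = 0.909). The 12 members of the class that did not pass had log2 values from -2.16 (Gpr165) to 1.35 (Gpr160).

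The atypical multi-pass proteins carry Gpr symbols but sit in lysosomes, the Golgi or other membranes or are not known to couple to G proteins. All 10 were tested, 4 were lower, 0 were higher and 6 did not pass, so 40.0% were called, beside 21.3% of all genes tested. Gpr155, a lysosomal protein that senses cholesterol and acts on mTORC1, was at 9.14, 8.12 and 7.63 CPM in Lsd1 KO and 20.8, 22.7 and 25.7 CPM in Control. The groups were well apart, and the fall was log2 -1.47 ± 0.24 (adjusted p = 0.00172). Gpr155 lies on mm9 chromosome 2 from 73179563 to 73224629. Gpr180 was at 30.8, 35.8 and 40.3 CPM in Lsd1 KO and 79.6, 57.5 and 46.3 CPM in Control (log2 -0.78 ± 0.22, adjusted p = 0.0263). Its call was lost without Lsd1 KO replicate 1 or 3 or Control replicate 1 or 2 (adjusted p = 0.128, 0.0577, 0.102 and 0.0572).

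The Gpr137 genes encode lysosomal membrane proteins, and 2 of their 4 members passed the test, beside 21.3% of all genes tested. Gpr137c was at 27.4, 23.0 and 24.1 CPM in Lsd1 KO and 32.8, 45.2 and 36.3 CPM in Control (log2 -0.62 ± 0.20, adjusted p = 0.0451). This call was close to the threshold and was lost without any 1 of Lsd1 KO replicates 1, 2 and 3 and Control replicate 2 (adjusted p = 0.0959, 0.0992, 0.142 and 0.193). It was also lost under scaling to library totals (0.0606) and by upper quartile (0.0616), with limma-voom (0.0524), without a filter (0.0536) and with a filter of 10 CPM (0.0607). Txndc16 lies across Gpr137c on the other strand, at 44.2 CPM in Lsd1 KO against 77.7 CPM in Control, so the source of these reads cannot be told apart. Gpr137b-ps, annotated by its symbol as a pseudogene of Gpr137b, was at 26.3, 29.9 and 21.1 CPM in Lsd1 KO and 59.5, 69.7 and 32.0 CPM in Control (log2 -1.06 ± 0.27, adjusted p = 0.0153). The highest Lsd1 KO library was just under the lowest Control library, and the call was lost without Lsd1 KO replicate 1 or 3 or Control replicate 1 or 2 (0.0579, 0.0762, 0.0533 and 0.0780). Gpr137b itself did not pass (log2 -0.34 ± 0.28), and reads may be split between the copies: their summed level was 47.9, 46.1 and 40.1 CPM in Lsd1 KO and 86.9, 99.7 and 46.3 CPM in Control. Gpr137 did not pass either and had a value of the other sign (log2 0.79 ± 0.30, adjusted p = 0.0786). The 6 members of the class that did not pass ran from log2 -0.70 (Gpr172b, a riboflavin transporter) to this value.

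**Figure D3:**
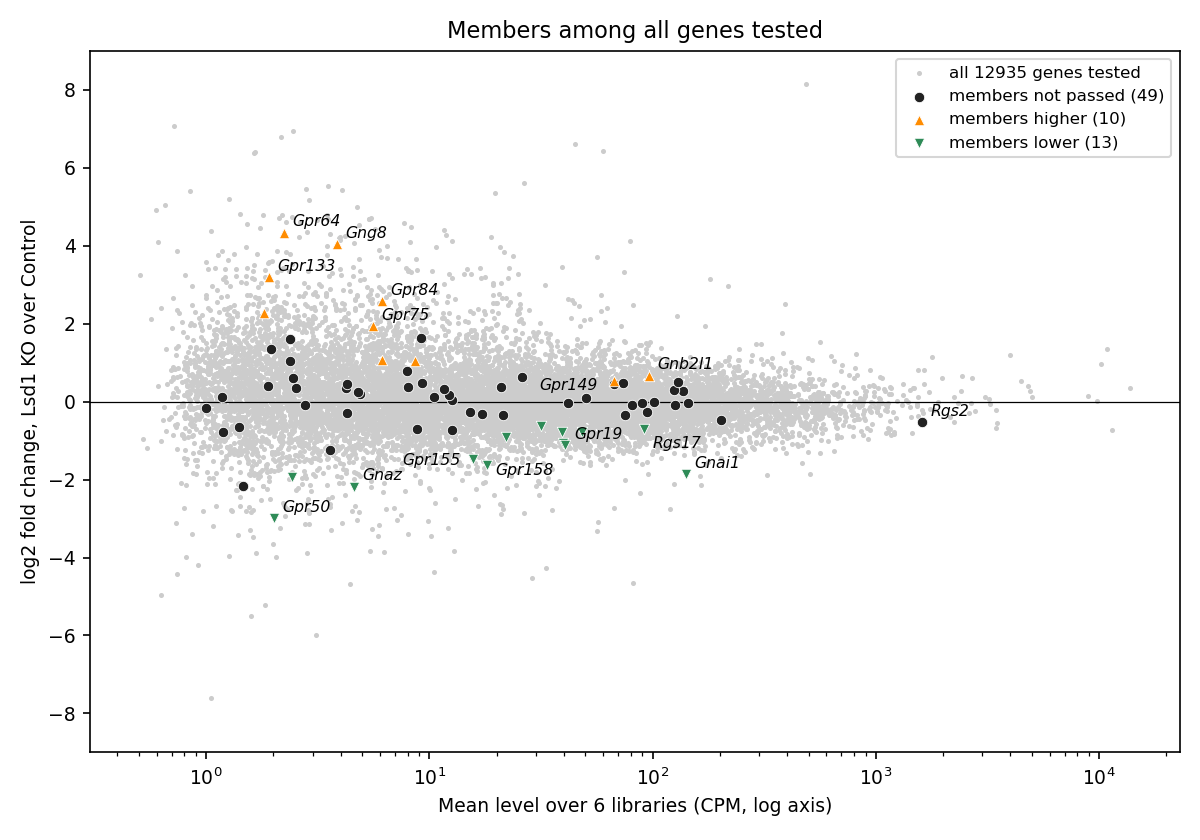
Log2 fold change of Lsd1 KO over Control (vertical axis) against the mean level over 6 libraries (horizontal axis, CPM, log axis) for all 12935 genes tested (grey) and for the members that were higher (10), lower (13) or did not pass (49). Gpr64 and Gng8 lie above log2 4 at low levels, Gnai1 is the lower member with the highest level, and Rgs2, the most abundant member, did not pass.

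Of the 14 G alpha genes tested, 3 were lower, 0 were higher and 11 did not pass, so 21.4% were called, beside 21.3% of all genes tested. Gnai1, 1 of the Gi subunits that inhibit adenylyl cyclase, was at 37.4, 87.9 and 57.5 CPM in Lsd1 KO and 146, 194 and 324 CPM in Control. Although each genotype was widely spread, the highest Lsd1 KO library stayed below the lowest Control library. The fall was log2 -1.86 ± 0.33 (adjusted p = 0.00240) and passed in all 6 fits with a library left out. Gnai1 lies on mm9 chromosome 5 from 17770953 to 17866231. Its close relatives did not pass and had values of the other sign, with Gnai3 at 186, 127 and 137 CPM in Lsd1 KO and 127, 131 and 114 CPM in Control (log2 0.28 ± 0.19). Gnai2 was at 72.1, 86.5 and 73.9 CPM in Lsd1 KO and 60.7, 52.4 and 58.4 CPM in Control (log2 0.44 ± 0.17, adjusted p = 0.0915). It did pass with a filter of 10 CPM. Gnaz, a Gi-class subunit that hydrolyses GTP slowly, was at 1.20, 1.8 and 1.97 CPM in Lsd1 KO and 7.03, 6.03 and 9.57 CPM in Control. Its fall was log2 -2.18 ± 0.41 (adjusted p = 0.00341), with every Control library above 3 times the highest Lsd1 KO library.

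Per kb of exon, the make-up of the Gi class differed between the genotypes. Gnai1 made up 10.4%, 23.2% and 16.8% of the summed Gi-class level in Lsd1 KO and 37.1%, 46.3% and 59.5% in Control. Gnai3 made up 41.0% ± 9.10 in Lsd1 KO and 27.5% ± 6.08 in Control, and Gnai2 31.4% ± 2.06 and 18.8% ± 3.50 (SD, n = 3 each). Among the 15 G alpha members, which leave out Gnas, Gnai1 thus led in Control at 69.4 ± 28.9 CPM per kb. In Lsd1 KO it stood at 19.1 ± 7.96 CPM per kb, below Gnai3 at 46.0 ± 9.76 and Gnai2 at 35.5 ± 3.60 CPM per kb. The order of Gnai3 and Gnai2 in Lsd1 KO was within their spread. The summed level of these 15 members, without Gnas, was 152 ± 6.13 CPM per kb in Lsd1 KO and 187 ± 26.5 CPM per kb in Control. These shares were computed after the fall of Gnai1 was known and are given without a test.

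**Figure D4:**
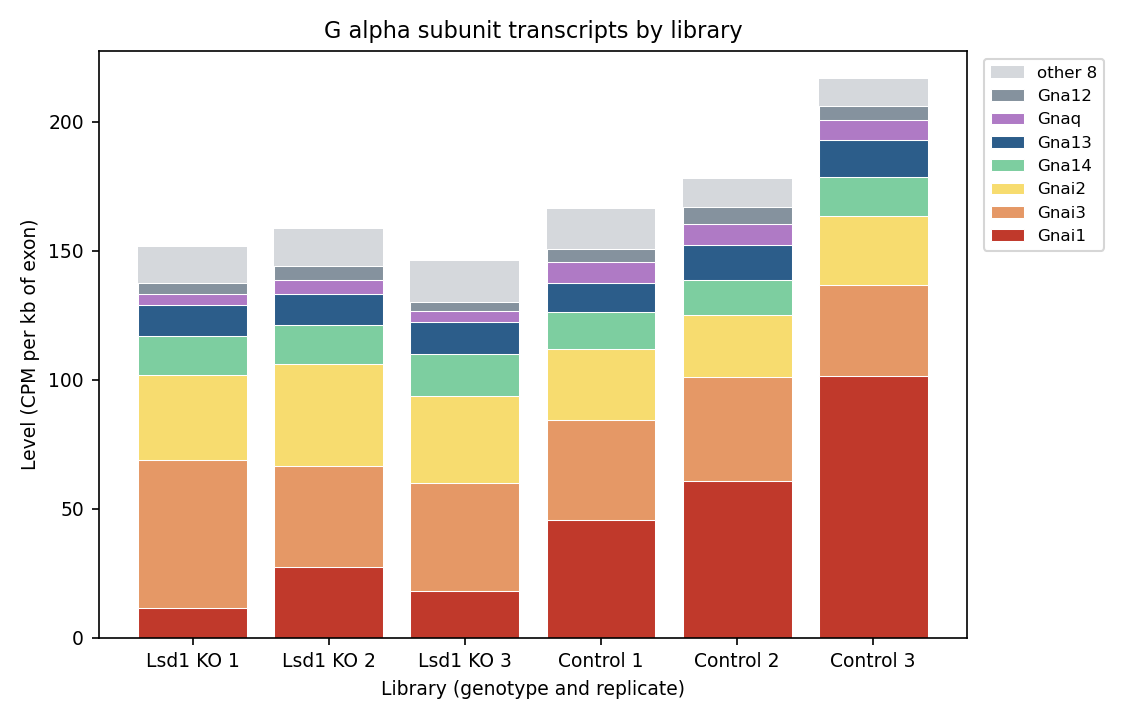
Level of the G alpha members, which leave out Gnas, in each library (vertical axis, CPM per kb of exon), stacked by gene. The 7 most abundant of these genes are named and the other 8 are summed. The horizontal axis gives the 3 Lsd1 KO libraries, then the 3 Control libraries. The Gnai1 segment is smaller in every Lsd1 KO library than in any Control library, and Control replicate 3 has both the tallest bar (217 CPM per kb) and the largest Gnai1 segment.

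Of the Gq class, which activates phospholipase C beta, Gnaq was at 27.3, 33.0 and 26.0 CPM in Lsd1 KO and 48.9, 50.9 and 48.9 CPM in Control. The Control libraries were almost equal, and the fall was log2 -0.78 ± 0.18 (adjusted p = 0.0104). The call was lost without Lsd1 KO replicate 1 or 3 (adjusted p = 0.0624 and 0.0608). E030024N20Rik lies across Gnaq on the other strand, at 11.6 CPM in Lsd1 KO against 8.17 CPM in Control. Gna11, the close relative of Gnaq, was at 11.5, 6.94 and 9.87 CPM in Lsd1 KO and 17.8, 17.3 and 12.2 CPM in Control and did not pass (log2 -0.74 ± 0.29, adjusted p = 0.0890). It did pass as lower without Control replicate 3. Gna14, the leading Gq-class transcript per kb, was at 15.4 ± 0.699 CPM per kb in Lsd1 KO and 14.4 ± 0.680 CPM per kb in Control (log2 0.10 ± 0.17). Of the G12 class, Gna13 was at 77.5, 78.3 and 79.0 CPM in Lsd1 KO and 72.6, 86.3 and 92.8 CPM in Control (log2 -0.10 ± 0.17), and Gna12 did not pass either (log2 -0.32 ± 0.25). Gnat1, the transducin of rods, did not pass (log2 1.62 ± 0.62, adjusted p = 0.0826). It was at 11.9, 13.4 and 16.2 CPM in Lsd1 KO but at 10.3, 0.829 and 2.53 CPM in Control, so that Control replicate 1 set the spread. Gnat1 did pass as higher with limma-voom, without a filter, with a replicate block and without Control replicate 1.

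Among the G beta genes and their WD-repeat relatives, 3 of 6 tested were higher, 0 were lower and 3 did not pass. Over all 12935 genes tested, 11.0% were called higher and 10.3% lower. Gnb1, the most widely expressed G beta subunit, was at 74.5, 83.4 and 81.8 CPM in Lsd1 KO and 53.6, 59.2 and 52.5 CPM in Control (log2 0.54 ± 0.17, adjusted p = 0.0399). Although the groups did not overlap, this call was lost without each library in turn (adjusted p from 0.0701 to 0.110) and without a filter (0.0592). Gnb2 was at 8.82, 6.58 and 9.61 CPM in Lsd1 KO and 4.81, 4.22 and 2.89 CPM in Control (log2 1.07 ± 0.35, adjusted p = 0.0480). The call was lost on leaving out Lsd1 KO replicate 1 or 3 or Control replicate 1, 2 or 3 (0.129, 0.137, 0.0721, 0.0972 and 0.0962), and also under scaling to library totals (0.0523) and without a filter (0.0588). Gnb2l1, now called Rack1, is a scaffold on the ribosome and not a subunit of G proteins. It was at 109, 119 and 127 CPM in Lsd1 KO and 84.6, 67.7 and 71.3 CPM in Control (log2 0.66 ± 0.17, adjusted p = 0.0165). Its call was lost without Lsd1 KO replicate 3 (adjusted p = 0.0612) or Control replicate 2 (0.0688). Trim41 overlaps Gnb2l1 on the opposite strand, at 43.9 CPM in Lsd1 KO against 36.1 CPM in Control. Gnb4, the most abundant of the class by CPM in Control, was at 89.5, 135 and 77.6 CPM in Lsd1 KO and 115, 86.3 and 104 CPM in Control (log2 -0.02 ± 0.22). Over Gnb1 to Gnb5 the summed level was 41.4 ± 1.68 CPM per kb in Lsd1 KO and 31.7 ± 1.94 CPM per kb in Control (SD, n = 3 each). The libraries of the genotypes did not overlap for this sum, which holds the called genes Gnb1 and Gnb2. Of all genes tested, 38.7% were without overlap, but that is a share of single genes and not of sums. Gnb1 made up 61.3% ± 1.58 of this sum in Lsd1 KO and 55.4% ± 5.05 in Control, and the sum is given without a test.

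The G gamma subunits, small lipid-anchored partners of G beta, gave 1 higher, 0 lower and 6 not passed of 7 tested. Thus 14.3% were called, beside 21.3% of all genes tested. Gng8, known from olfactory and vomeronasal neurons, was at 9.86, 3.34 and 8.53 CPM in Lsd1 KO and 0.185, 0.226 and 0.903 CPM in Control. Lsd1 KO libraries held 37 to 123 of its counts and Control libraries 2 to 10, and it passed the filter through Lsd1 KO alone. It rose by log2 4.03 ± 0.66 (adjusted p = 0.00167), or 5.04 without Control replicate 3, and lies on mm9 chromosome 7 from 17477135 to 17480784. The 3 abundant members did not pass. Gng3, the leading G gamma transcript per kb, stood at 84.2 ± 11.6 CPM per kb in Lsd1 KO and 85.8 ± 14.8 CPM per kb in Control (log2 -0.03 ± 0.19), with Bscl2 overlapping it on the opposite strand. Gng5 followed at 44.6 ± 12.2 CPM per kb in Lsd1 KO and 47.4 ± 10.2 CPM per kb in Control (log2 -0.09 ± 0.23). Gng12 was at 148, 206 and 156 CPM in Lsd1 KO and 246, 227 and 231 CPM in Control (log2 -0.47 ± 0.18, adjusted p = 0.0824), and it passed when Lsd1 KO replicate 2, its highest Lsd1 KO library, was left out. Even after its rise, Gng8 stood at 7.87 ± 3.75 CPM per kb in Lsd1 KO, far below these 3.

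The RGS genes were dominated by Rgs2, an R4-family member that acts on Gq. It was at 1258, 1445 and 1271 CPM in Lsd1 KO and 1648, 1642 and 2412 CPM in Control. The libraries did not overlap, yet the difference did not pass (log2 -0.52 ± 0.20, adjusted p = 0.0775); it did pass with the DESeq2 Wald test. Per kb, Rgs2 made up 75.0% ± 1.37 of the summed RGS level in Lsd1 KO and 83.2% ± 3.66 in Control (SD, n = 3 each). Rgs3, the other R4 member tested, was at 100.0, 75.3 and 83.0 CPM in Lsd1 KO and 54.4, 63.3 and 66.4 CPM in Control (log2 0.49 ± 0.18, adjusted p = 0.0758).

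The other RGS genes gave 2 lower, 0 higher and 4 not passed of 6 tested, so 33.3% were called, beside 21.3% of all genes tested. Both falls were in the RZ family, which acts on Gi-class subunits and on Gnaz in particular. Rgs17 was at 63.4, 74.8 and 70.9 CPM in Lsd1 KO and 135, 100.2 and 107 CPM in Control (log2 -0.71 ± 0.18, adjusted p = 0.0152). Its call was lost without Lsd1 KO replicate 1 or 3 or Control replicate 1 (adjusted p = 0.0924, 0.0626 and 0.0538). Rgs19, known as GAIP from its binding to Gnai3, was at 14.4, 10.5 and 21.1 CPM in Lsd1 KO and 31.8, 29.5 and 24.4 CPM in Control (log2 -0.90 ± 0.27, adjusted p = 0.0319). Lsd1 KO replicate 3 lay close to Control replicate 3, and the call was lost without Lsd1 KO replicate 1 or 2 or Control replicate 1 or 2 (adjusted p = 0.109, 0.0811, 0.0938 and 0.0848). The third RZ gene, Rgs20, had too few counts to be tested. Rgs10, an R12-family member, was at 137, 165 and 155 CPM in Lsd1 KO and 109, 115 and 99.6 CPM in Control and fell just short of the threshold (log2 0.50 ± 0.17, adjusted p = 0.0507). Rgs12 was also just short of it, at 25.2, 35.4 and 33.7 CPM in Lsd1 KO and 21.5, 18.5 and 21.0 CPM in Control (log2 0.63 ± 0.21, adjusted p = 0.0521). Both passed under scaling to library totals and by upper quartile, with the DESeq2 Wald test and with the filter of 10 CPM.

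Genes that work next to the receptors and G proteins (receptor kinases, arrestins, G-protein chaperones, receptor sorting proteins and effectors) were read from a list of 57 symbols, of which 56 were in the files and 34 were tested. In this list 1 gene was higher, 4 were lower and 29 did not pass, so 14.7% were called, beside 21.3% of all genes tested; the median log2 fold change was -0.24. Pdcl, the phosducin-like chaperone that assembles the G beta-gamma dimer, was at 15.2, 16.4 and 20.7 CPM in Lsd1 KO and 36.1, 25.9 and 33.2 CPM in Control (log2 -0.86 ± 0.22, adjusted p = 0.0165). Reep6 was at 16.0, 18 and 25.8 CPM in Lsd1 KO and 41.6, 34.9 and 53.4 CPM in Control (log2 -1.12 ± 0.24, adjusted p = 0.00694), whereas its relative Reep5 rose, at 75.4, 114 and 113 CPM in Lsd1 KO against 62.9, 58.1 and 60.4 CPM in Control (log2 0.74 ± 0.20, adjusted p = 0.0186). Both encode proteins that shape the endoplasmic reticulum. The guanine nucleotide exchange factor Arhgef11, an effector of Gna12 and Gna13, was at 64.5, 60.5 and 60.8 CPM in Lsd1 KO and 69.6, 125 and 117 CPM in Control (log2 -0.75 ± 0.22, adjusted p = 0.0291). Adcy1, a neuronal adenylyl cyclase, passed at log2 -1.83 ± 0.59 (adjusted p = 0.0450), but its groups overlapped, with 4.17, 9.20 and 5.92 CPM in Lsd1 KO and 24.0, 40.1 and 4.07 CPM in Control. Leaving out Lsd1 KO replicate 1 or 3 or Control replicate 1 or 2 gave 1, 2, 2 and 2 genes of the list lower. Leaving out Lsd1 KO replicate 2 or Control replicate 3 gave 2 and 3 genes higher, and leaving out Lsd1 KO replicate 3 or Control replicate 1 or 2 gave 0.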

How the data were processed

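The deposited files hold raw read counts per gene symbol, 1 column per sample, made by the authors; all values were whole numbers. The tools listed were TopHat2 2.0.7, CASAVA 1.8.2 and HTSeq 0.5.3p9, with genome mm9, per the submitters' processing notes. Options, annotation and strand setting were not stated in the sources used here, and cDNA was amplified before library preparation, per the labels' protocols.

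Members were read by a pattern on the symbol. Genes passing filterByExpr (minimum count 10) were scaled by TMM and compared by edgeR 4.0.16 (R 4.3.3) with the quasi-likelihood F test, two-sided; p was adjusted by Benjamini-Hochberg over 12935 genes, with 0.05 as the threshold. The SE of a log2 fold change was derived from the F statistic. The common biological coefficient of variation was 27.2%, and replicate pairs differed by 21.2 to 47.1 times counting noise (chi-square per degree of freedom). Exon lengths and mm9 positions came from GENCODE M1 for 145 of 148 members. The rule for members uses symbols and no values, but it and the lists were chosen with earlier results of these data known. Every called member is given with its value in each library, the 3 most abundant tested members of each class by level, and of the pathway list the called genes; values of other members were chosen after they were seen. The fit was tested on simulated data. Alternatives used DESeq2 1.42.0 and limma 3.58.1, other scalings and filters, a replicate block and leaving out each library. The values of some members are not reported here.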

Additional observations from a re-analysis of the deposited data

How the results depend on the processing

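Over the 14 settings beside the one reported, none of the 38 members listed with an alternative value (the 23 called members and the most abundant of each class) turned its direction with a call. Scaling moved the median of all genes by at most 0.04 on the log2 scale. Under settings that kept all libraries, members higher numbered 7 to 12 and members lower 9 to 14, and 19 of the 23 calls held in all of these where the gene was tested. With each library left out in turn, members higher numbered 4 to 11 and members lower 6 to 13, the pathway list had 0 to 3 genes higher and 1 to 4 lower, and 9 of the 23 calls held in all 6 fits, of which 3 (Gpr64, Gng8 and Gpr133) had entered the test through Lsd1 KO alone. Without a filter on low counts the pathway list had 3 genes higher. Replicate numbers did not pair the samples: deviations of same-numbered libraries correlated at -0.03, 0.11 and -0.02 across genes, and 2 of 6 libraries correlated best with their own number. With a replicate block, 9 members were higher and 12 lower; Gnb1, Gnb2 and Gpr137c did not pass (adjusted p = 0.0798, 0.0755 and 0.0857) and Gnat1 did. The causes were not tested. Depth limits the members below the filter and the low Control levels of Gpr64, Gpr133 and Gng8, whose fold changes rest on 1 to 10 counts per Control library.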

Other observations

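Several members that were too low to be tested were counted mainly in Lsd1 KO replicates 1 and 3. These libraries had the highest immune marker sums (134, 9.83 and 94.4 CPM in Lsd1 KO against 32.0, 5.80 and 38.4 CPM in Control). The members were picked after their values were seen. Rgs1, an RGS gene of lymphocytes and other blood cells, had 48, 0 and 39 counts in Lsd1 KO and 3, 1 and 0 counts in Control. Gpr65, a proton-sensing receptor of immune cells, had 11, 0 and 19 counts in Lsd1 KO and 3, 0 and 4 counts in Control. Gpr77, a receptor for complement C5a also known as C5ar2, had 36, 2 and 22 counts in Lsd1 KO and 2, 5 and 7 counts in Control. The genes just named are not a full list of the immune-cell genes among the members. Some other untested members did not follow the immune marker sums. Gpr174 had 6, 0 and 5 counts in Lsd1 KO and 16, 16 and 1 counts in Control. Gpr183 had 0, 3 and 0 counts in Lsd1 KO and 1, 0 and 7 counts in Control. The part of blood cells in the counts of any of these genes was not tested.

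Gpr20, an orphan receptor, was widely spread within each genotype: it had 52, 1 and 24 counts in Lsd1 KO and 52, 136 and 1 counts in Control, and did not pass (log2 -1.23 ± 1.04).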
